A study of Homo sapiens with 4 samples.

Results

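RAB GTPases, the small GTP-binding proteins that mark membranes in vesicle traffic, were described here as a gene family in human excitatory neurons. The members were the gene symbols made of RAB, a number and at most 1 letter from A to D, so that membership rests on the name and not on a measured value. The rule found 63 members among 28307 gene symbols, each with a single row per library, and 56 of them had enough counts to be tested. The other 7 were RAB7B, RAB17, RAB19, RAB25, RAB38, RAB42 and RAB44.

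A RAB protein is inactive when bound to GDP and active when bound to GTP, and its lipid tail anchors the active form to a membrane. Exchange factors load GTP, GTPase-activating proteins end the active state, and active RABs recruit effectors (tethers, motors and coat adaptors) to their membranes. In neurons the family serves synaptic vesicle release, the sorting of receptors in endosomes, the delivery of cargo into axons and dendrites, and the passage of lysosomes back to the cell body.

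The neurons were made from i3N-WTC11, a line of human pluripotent stem cells obtained by reprogramming, and all 4 libraries share a CAG-driven dCas9-KRAB gene knocked into an intron of CLYBL. In CRISPR interference (CRISPRi) this Cas9 without cutting activity, which carries the KRAB repressor domain, is brought to a stretch of DNA by a guide RNA in order to silence it. The 2 CRISPRi libraries were from neurons given lentivirus with guides against a transposable element of the MIR family on chromosome 11, for which 2 independent guides were designed. The 2 control libraries were from neurons given the empty vector. Virus was added to neurons differentiated for 2 weeks, at a multiplicity of infection of about 3, puromycin (0.5 ug/mL) was kept on for 4 days, and cells were collected 7 days after the virus, in both groups. The labels call the replicates biologically independent, all from this 1 line, and the guide used in each library is not given in the sources used here.

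Gene counts totalled 44839748 in CRISPRi replicate 1, 41560282 in CRISPRi replicate 2, 944993 in control replicate 1 and 39325038 in control replicate 2. In control replicate 1 a single count is worth 1.06 CPM (counts brought to the same total in each library), and 3 counts, the floor used for a count of 0, are worth 3.17 CPM. That library also stood apart in its markers: 10 dividing-cell genes summed to 83.1 and 87.2 CPM in the CRISPRi libraries, against 439 CPM in the shallow and 85.3 CPM in the deep control library. The 12 excitatory neuron markers, all detected in every library, summed to 19019 and 19898 CPM in CRISPRi neurons, against 16747 and 19263 CPM in control. Sums of pluripotent (7 genes), mesenchymal (8 genes) and glial (10 genes) markers lay between 29.5 and 83.7 CPM in every library, with TDGF1 and SOX10 at 0 counts throughout. The part of the dividing-cell signal in the RAB values was not tested. Below, paired values stand in the order replicate 1 then replicate 2, and positions are on hg38. Fold changes are from all 4 libraries unless a value without control replicate 1 is named.

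No RAB gene changed past the threshold between CRISPRi and control neurons. In edgeR's quasi-likelihood F test, with p adjusted by Benjamini-Hochberg over 15708 genes, 0 of 56 tested members were called higher (0.0% of all genes) and 0 lower (0.0255% of all genes). No member had an unadjusted p under 0.05 either, where 0.547% of all genes lay higher and 0.414% lower; DESeq2 and limma-voom also called 0 members after adjustment. The fitted log2 fold change (CRISPRi over control) was positive for 35 members and negative for 21, that is 62.5% positive against 52.7% of all tested genes. Its median was 0.04 over the members and 0.01 over all tested genes. For 48 of the 56 members the fold change lay within 0.2 of 0 on the log2 scale (85.7%, against 72.8% of all tested genes). The 95% interval of 46 members excluded a change of 2-fold in either direction (82.1%, against 68.7% of all tested genes). That of 38 members excluded 1.5-fold, for which the share over all genes was not taken.

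**Figure D1:**
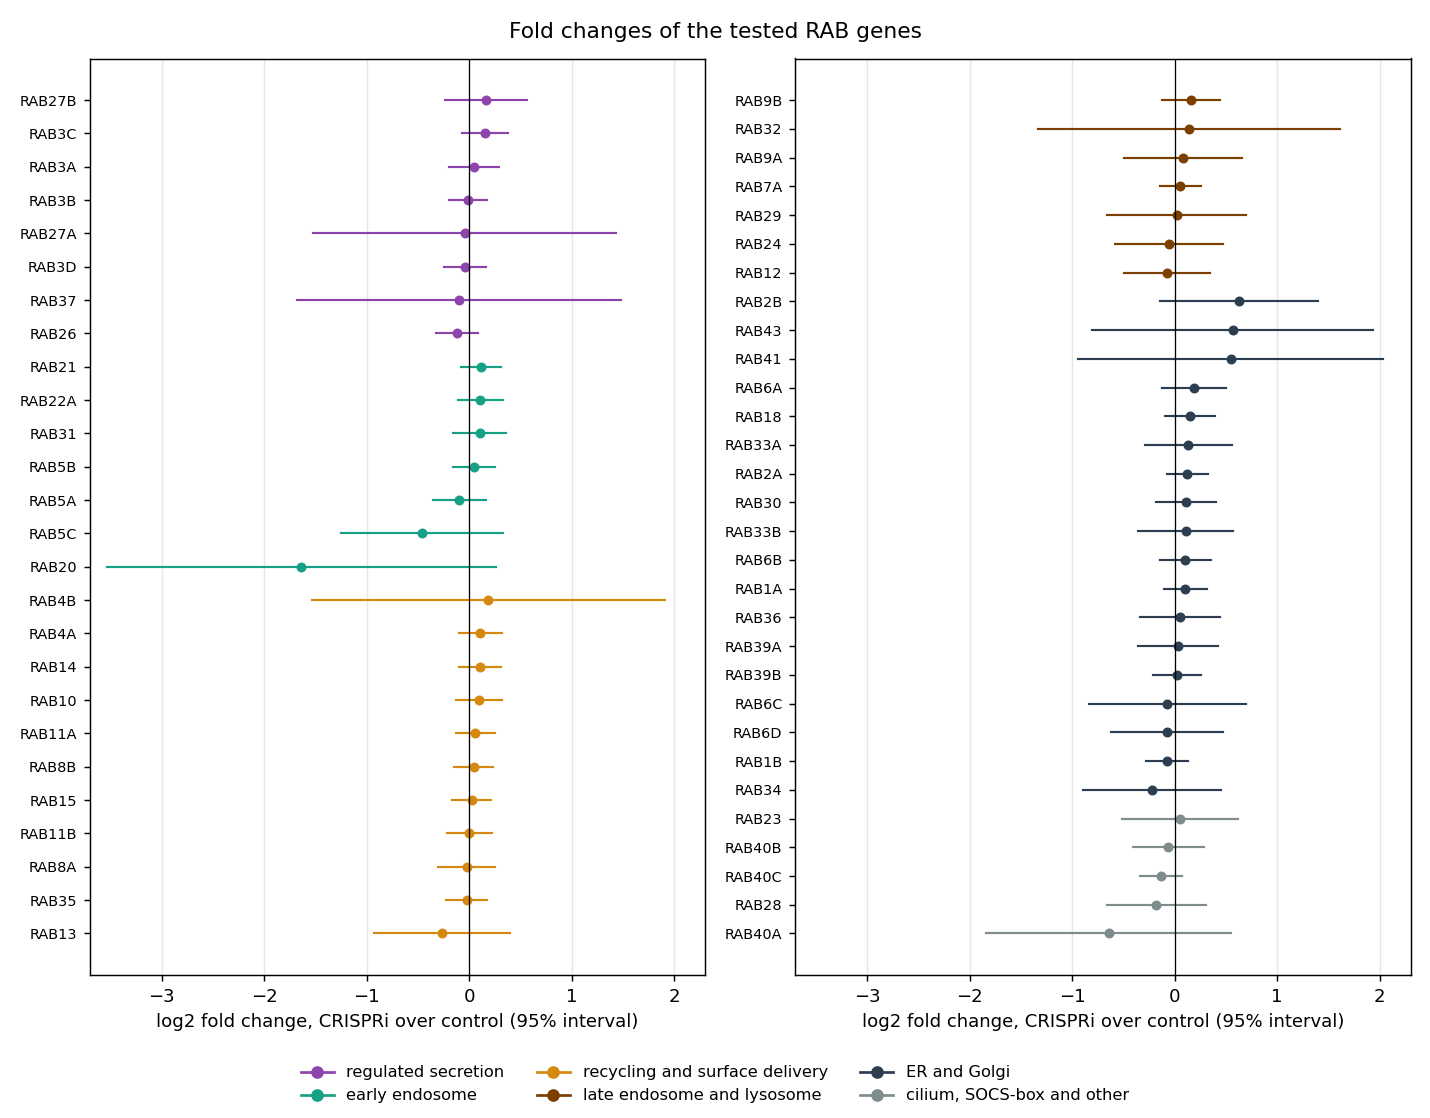
Log2 fold change of each of the 56 tested RAB genes, CRISPRi over control, on the horizontal axis, with the 95% interval from edgeR as a bar; colours mark the role and genes are ordered within it. The values run from -1.64 for RAB20 to 0.63 for RAB2B, and every interval spans 0.

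The family as a whole took up a similar part of the transcriptome in every library. Its counts summed to 5277 and 5351 CPM in CRISPRi replicates 1 and 2, and to 4998 CPM in the shallow and 5304 CPM in the deep control library. The lowest sum was that of the shallow library, and the 3 deep libraries differed by little. Because these are bulk samples, fewer cells of a type and less RNA per cell cannot be told apart. The 5 genes with the most counts held 36% of the RAB counts, averaged over libraries, and the top 10 held 57.9%. Without control replicate 1 the family median was 0.02, with 31 positive and 26 negative values among 57 members that could then be tested.

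Groups that did not overlap were common and followed the shallow library. After TMM scaling, 17 of 56 members had both CRISPRi libraries above both controls (30.4%, against 19.8% of all tested genes), and 8 had both below (14.3%, against 14.6%). In all 17 of the higher members control replicate 1 was the lower of the control libraries, as it was in 90.4% of all genes of that kind. In all 8 of the lower members it was the higher control, as in 88.2% of all genes of that kind.

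Levels spanned from RAB38, a RAB of lysosome-related organelles such as melanosomes with 0 counts in every library, to RAB3A. To compare genes, CPM was divided by the merged length of the exons of protein-coding transcripts in kilobases (CPM per kb). On that scale RAB3A led at 201 ± 11.5, followed by RAB7A at 157 ± 5.11, RAB11B at 129 ± 5.78, RAB6A at 109 ± 12.5 and RAB6B at 99.1 ± 6.98 (mean ± SD over the 4 libraries). The ranges of RAB3A, RAB7A and RAB11B did not overlap that of the next gene in order. From RAB6A down through RAB6B, RAB5C, RAB1A and RAB1B to RAB10 the range of each gene overlapped that of the next, although RAB6A and RAB6B lay above RAB1A, RAB1B and RAB10 in every library. RAB10, at 74.8 ± 4.24 CPM per kb, was again clear of the next, RAB5B, at 47.9 ± 1.59 CPM per kb. The 10 genes that led were also the top 10 by the authors' FPKM, another length-scaled unit, but not in the same order. By FPKM RAB11B (mean 167) stood above RAB7A (mean 158), and it did so in every library. The order of RAB7A and RAB11B thus depends on the unit. In CPM, without length, the order was RAB6B, RAB6A, RAB7A and then RAB3A. On that scale 16 members were above 100 CPM in every deep library, and 10 stayed under 1 CPM in all of those libraries.

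**Figure D2:**
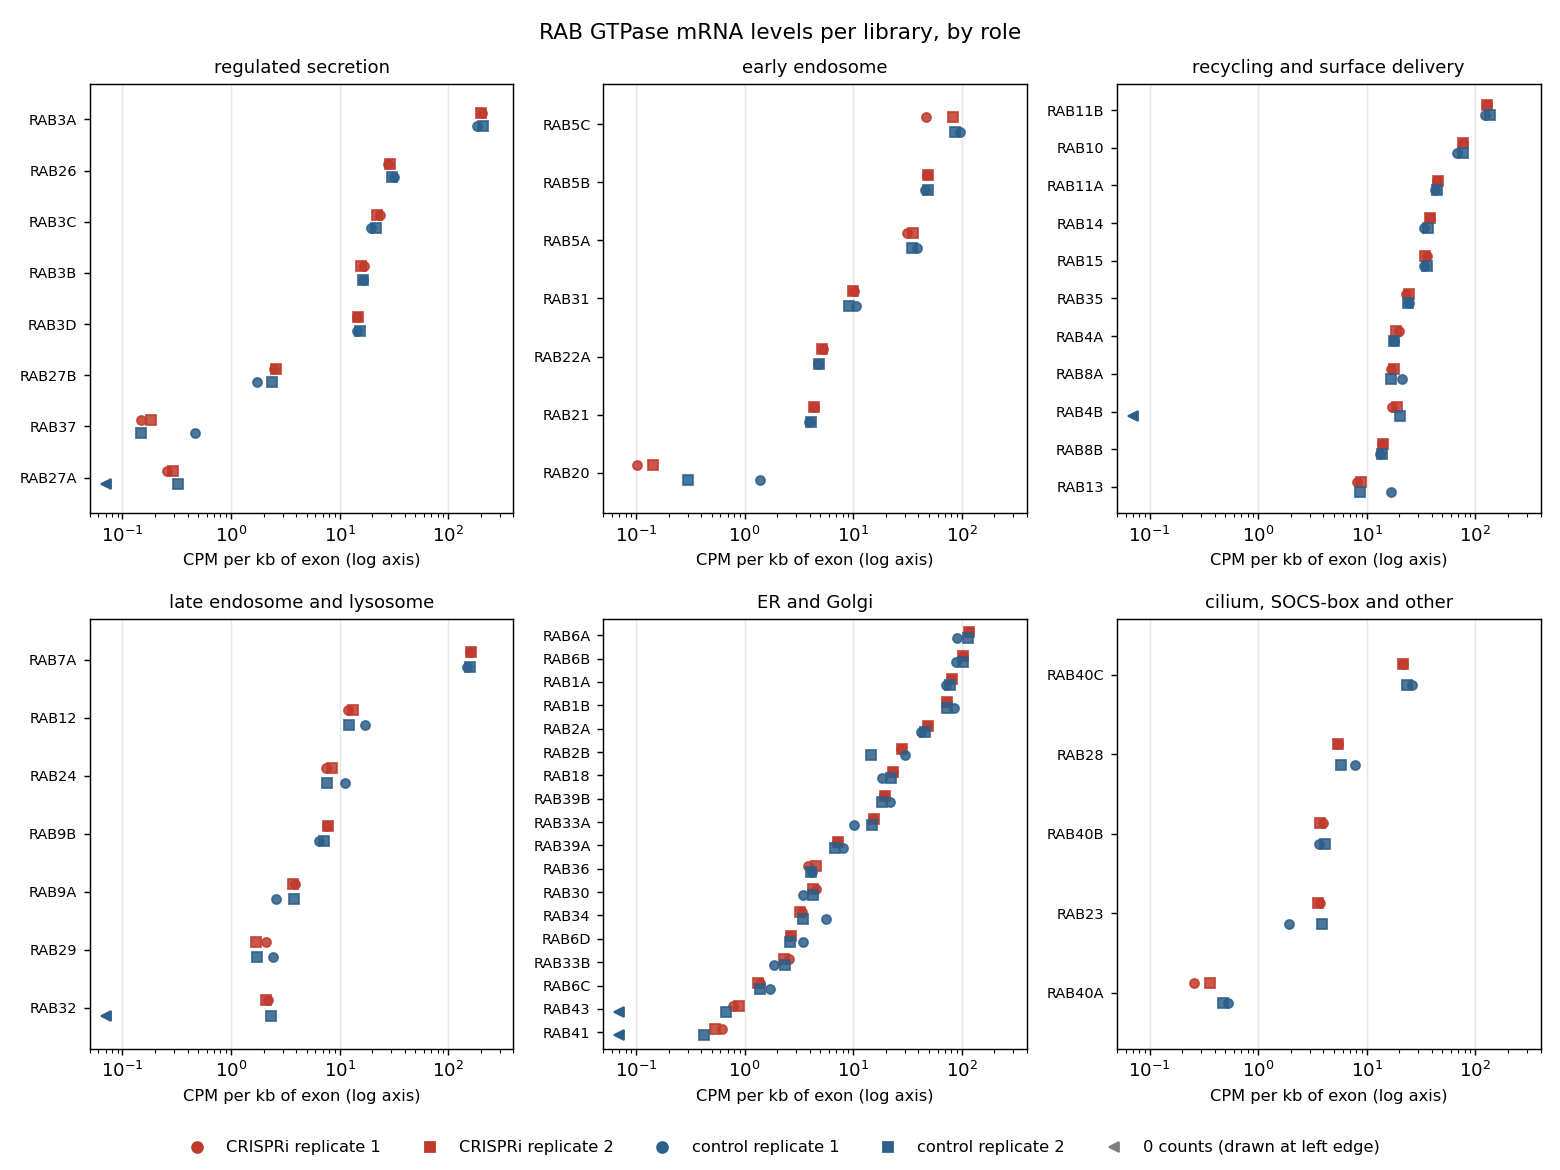
Level of each RAB gene in each library, in CPM per kb of exon on a log axis, in 6 panels by role; red symbols are CRISPRi libraries, blue symbols control libraries, and triangles at the left edge stand for 0 counts. The 7 members that were not tested are not drawn. The libraries lie close together for most genes and spread apart at the low end, mostly in control replicate 1.

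RABs of regulated secretion act on synaptic and secretory vesicles; the list holds 9 members, of which 8 were tested and 0 called. Their summed level was 873 and 848 CPM in CRISPRi replicates 1 and 2, against 804 CPM in the shallow and 872 CPM in the deep control library. The median log2 fold change of the 8 was -0.03. RAB3A, the main RAB of synaptic vesicles, which binds RIM at the release site (chromosome 19, 18196784 to 18204042, minus strand), had 314 and 309 CPM in CRISPRi neurons, against 283 and 323 CPM in control. The CRISPRi values lay between the 2 controls, and the log2 fold change was 0.05 (SE 0.10, 95% interval -0.19 to 0.29), and -0.05 with control replicate 1 left out. Its start region is set here beside those of RAB27B, a secretory RAB at a low level, and RAB25, an epithelial RAB close to 0 in these neurons, because they span the range from the highest member per kilobase to one hardly read. Each is the RefSeq sequence of GRCh38.p14, 5′ to 3′ on the gene's strand, from 250 bases before to 50 after the annotated start, with CG dinucleotides in capitals: chr19:18203993-18204292 on the minus strand for RAB3A, chr18:54717607-54717906 on the plus strand for RAB27B and chr1:156060910-156061209 on the plus strand for RAB25.
RAB3A: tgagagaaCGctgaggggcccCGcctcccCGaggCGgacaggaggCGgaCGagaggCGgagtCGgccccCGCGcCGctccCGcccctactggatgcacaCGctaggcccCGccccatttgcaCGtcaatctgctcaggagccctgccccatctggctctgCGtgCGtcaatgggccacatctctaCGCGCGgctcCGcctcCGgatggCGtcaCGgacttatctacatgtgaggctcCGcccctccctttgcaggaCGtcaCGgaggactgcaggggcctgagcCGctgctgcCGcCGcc
RAB27B: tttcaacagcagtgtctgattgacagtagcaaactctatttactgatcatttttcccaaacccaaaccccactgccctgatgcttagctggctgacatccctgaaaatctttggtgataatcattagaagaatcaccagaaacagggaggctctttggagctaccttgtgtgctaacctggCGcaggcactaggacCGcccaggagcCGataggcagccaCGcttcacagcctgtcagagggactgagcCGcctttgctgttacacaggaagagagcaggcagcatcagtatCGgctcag
RAB25: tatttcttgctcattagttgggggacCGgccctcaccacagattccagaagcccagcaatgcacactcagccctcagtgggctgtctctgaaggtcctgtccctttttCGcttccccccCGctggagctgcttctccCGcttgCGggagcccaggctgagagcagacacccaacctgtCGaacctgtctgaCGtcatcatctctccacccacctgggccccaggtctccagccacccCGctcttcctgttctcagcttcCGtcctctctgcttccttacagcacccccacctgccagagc
The RAB3A window holds 30 CG dinucleotides (69.7% G or C), the RAB27B window 6 (51% G or C) and the RAB25 window 9 (60.7% G or C). These windows alone cannot show whether the number goes with level. In tested members below RAB27B per kilobase, where a window was at hand, the number ran from 2 (RAB40A) to 45 (RAB32).

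Start regions of this kind were at hand for 50 of the 63 members. The median number of CG dinucleotides was 25 over those members, 14 over all 27305 genes in the table and 26 over the 11999 of them that were tested. Among the members, the 45 that were tested had a median of 29 (range 2 to 52), and the 5 that were not had a median of 7 (range 4 to 12); this describes the sequences and was not tested. The letters GGGCGG, the core of the GC box, were found on either strand in 78% of members, 44.6% of all genes and 68.5% of tested genes. The letters TATAAA, searched in the same way, were in 8% of members, 11.95% of all genes and 5.94% of tested genes. The cyclic AMP response element TGACGTCA was in 1 member, RAB25, and in 1.98% of all genes. These are matches of letters in a window, not sites shown to be bound, and the motifs were counted separately; none contains another.

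The other RAB3 paralogs serve regulated exocytosis beside RAB3A. RAB3B had 214 and 203 CPM in CRISPRi neurons, against 212 and 212 CPM in control, a log2 fold change of -0.01, and -0.02 with control replicate 1 left out. RAB3C had 209 and 197 CPM in CRISPRi neurons, against 172 and 192 CPM in control. Both CRISPRi values lay above both controls, but the log2 fold change of 0.15 (SE 0.09) did not pass, with an edgeR quasi-likelihood adjusted p of 1.00, and was 0.09 without control replicate 1. RAB3D had 64.0 and 65.0 CPM in CRISPRi neurons, against 63.5 and 68.4 CPM in control, a log2 fold change of -0.05, and -0.08 with control replicate 1 left out. RAB26, which links synaptic vesicles to autophagy, had 51.4 and 53.6 CPM in CRISPRi neurons, against 59.3 and 57.0 CPM in control. The groups did not overlap, at a log2 fold change of -0.12 (SE 0.08), and the difference did not pass.

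RAB27 proteins dock secretory granules and act in exosome release. RAB27B had 18.1 and 18.8 CPM in CRISPRi neurons, against 12.7 and 17.5 CPM in control, with 12 counts behind the lower control value. Its log2 fold change of 0.16 (SE 0.16) was 0.08 without control replicate 1. RAB27A had 43 and 45 counts in CRISPRi neurons, against 0 and 47 counts in control. At the level of the deep libraries, 0.959 to 1.2 CPM, about 1 count would fall in control replicate 1, so the 0 there lies within counting error; the fitted log2 fold change was -0.04, or -0.22 without that library. RAB37, a RAB of secretory granules, was at 0.661 to 2.12 CPM, and RAB44, a member with a long additional N-terminal part, had 1 count in all.

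Early endosome RABs direct the fusion of incoming vesicles and the first sorting of endocytosed receptors; 7 of 8 listed members were tested and 0 were called. RAB5C, 1 of 3 RAB5 paralogs that control early endosome fusion (chromosome 17, 42124979 to 42154989, minus strand), had 90.6 and 158 CPM in CRISPRi neurons, against 186 and 165 CPM in control. CRISPRi replicate 1 was the low library, and CRISPRi replicate 2 lay close to control replicate 2. The log2 fold change was -0.46 (SE 0.30) and did not pass (edgeR quasi-likelihood adjusted p = 1.00). It was -0.40 without control replicate 1, -0.12 without CRISPRi replicate 1 and -0.93 without CRISPRi replicate 2, where it passed (SE 0.19, adjusted p = 0.00115). The call without CRISPRi replicate 2 rests on CRISPRi replicate 1 alone.

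RAB5B had 262 and 265 CPM in CRISPRi neurons, against 248 and 266 CPM in control, and RAB5A had 78.9 and 90.8 CPM in CRISPRi neurons, against 98.4 and 88.6 CPM in control. Their log2 fold changes were 0.04 (SE 0.08) and -0.10 (SE 0.10), and -0.01 and -0.06 without control replicate 1. RAB21 and RAB22A, which act in integrin and receptor recycling, had log2 fold changes of 0.11 and 0.11, and RAB31, a relative of RAB22A, had 0.10; without control replicate 1 these 3 were 0.09 to 0.15. RAB20, a RAB of phagosomes and other endosomes, had 7 and 9 counts in CRISPRi neurons, against 2 and 18 counts in control. Its fitted log2 fold change of -1.64 (SE 0.76) was the lowest in the family, and its unadjusted edgeR quasi-likelihood p of 0.0785 the smallest; without control replicate 1 the value was -1.28. At 0.156 to 0.458 CPM in the deep libraries it rests on few counts. RAB17, an epithelial RAB, had 2 counts in CRISPRi replicate 1 and 0 elsewhere.

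Recycling and surface-delivery RABs return receptors to the plasma membrane and carry new cargo to it; 11 of 12 listed members were tested and 0 called. Summed levels were 1349 and 1349 CPM in CRISPRi neurons, against 1256 and 1356 CPM in control, and the median log2 fold change was 0.04. RAB11B, a RAB of the recycling endosome (chromosome 19, 8390360 to 8404433, plus strand), had 274 and 271 CPM in CRISPRi neurons, against 258 and 288 CPM in control. Its log2 fold change was 0.00 (SE 0.09), and its sign turned with either other scaling and without control replicate 1 (-0.07). RAB11A, its paralog, had 219 and 224 CPM in CRISPRi neurons, against 210 and 219 CPM in control, a log2 fold change of 0.06. RAB10, which acts in axonal membrane delivery, had 275 and 270 CPM in CRISPRi neurons, against 242 and 270 CPM in control, a log2 fold change of 0.09. In both genes control replicate 1 was the lowest library, and without it the values were 0.03 for RAB11A and 0.02 for RAB10.

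Of the remaining members of this list, RAB14, RAB15, RAB35, RAB4A, RAB8A and RAB8B had log2 fold changes between -0.03 and 0.11, also without control replicate 1. RAB14 acts between the Golgi and endosomes, RAB15 in endocytic recycling, RAB35 in fast recycling, RAB4A in fast return from early endosomes, and RAB8A and RAB8B in delivery to the cell surface. RAB13, a RAB of cell junctions that also acts in neurite outgrowth, had 13 and 14 CPM in CRISPRi neurons, against 26.5 and 13.9 CPM in control. Control replicate 1, with 25 counts, was the high library. The log2 fold change was -0.27 (SE 0.27), and -0.04 without control replicate 1. RAB25, a RAB11 relative of epithelia, had 6 and 0 counts in CRISPRi neurons, against 0 and 4 counts in control.

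RAB4B, the paralog of RAB4A, lies in a locus with read-through transcripts (chromosome 19, 40778247 to 40796942, plus strand). It had 1178 and 1223 counts in CRISPRi neurons, against 0 and 1223 counts in control, where 27.2 counts would be predicted in control replicate 1 from the deep libraries. In control replicate 1 counts stood only under the read-through symbols of the locus. MIA-RAB4B had 0 and 0 counts in CRISPRi neurons, against 11 and 0 in control, and RAB4B-EGLN2 had 116 and 92 counts in CRISPRi neurons, against 23 and 134 in control. The sum of these symbols was 28.9 and 31.6 CPM in CRISPRi neurons, against 36 and 34.5 CPM in control libraries, with an exact Poisson 95% interval of 24.9 to 50.3 CPM (counting error only) for control replicate 1. The sums over these symbols were thus close. RAB4B-EGLN2 also reads into EGLN2, which had 108 and 109 CPM in CRISPRi neurons, against 82.5 and 111 CPM in control. Whether its reads in control replicate 1 came from RAB4B or EGLN2 was not tested, and the 0 of RAB4B itself is uncertain.

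Late endosome and lysosome RABs drive the maturation of endosomes and the transport of lysosomes; 7 of 9 listed members were tested and 0 called. RAB7A, which recruits the HOPS tether and dynein adaptors and whose mutations cause a Charcot-Marie-Tooth neuropathy (chromosome 3, 128726183 to 128814798, plus strand), had 356 and 362 CPM in CRISPRi neurons, against 337 and 359 CPM in control. The log2 fold change was 0.06 (SE 0.08, 95% interval -0.15 to 0.26), and 0.0051 with control replicate 1 left out. RAB12, a substrate of the kinase LRRK2, had 25.5 and 28.3 CPM in CRISPRi neurons, against 37.0 and 26.1 CPM in control. RAB24, which acts in autophagy, had 10.6 and 12 CPM in CRISPRi neurons, against 15.9 and 10.9 CPM in control. In both genes control replicate 1 was the high library, and the log2 fold changes of -0.07 for RAB12 and -0.05 for RAB24 were 0.05 and 0.06 without it.

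RAB9B and RAB9A, which return cargo receptors from late endosomes to the Golgi, had log2 fold changes of 0.16 and 0.08, and 0.13 and -0.0045 without control replicate 1. RAB29, another RAB tied to LRRK2, had 0.02, or 0.12 without that library. RAB32, a RAB of lysosome-related organelles, had 119 and 106 counts in CRISPRi neurons, against 0 and 111 counts in control, and its level of 2.55 to 2.82 CPM in the deep libraries is under the 3.17 CPM that a count of 0 allows in control replicate 1. RAB7B had 1 count in all. RAB38 was the member with no count in any library, which allows at most 0.0669 CPM in CRISPRi replicate 1 and 0.0763 CPM in control replicate 2.

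ER and Golgi RABs carry cargo through the early secretory pathway and within the Golgi; 18 of 19 listed members were tested and 0 called. Their summed level was 1920 and 1927 CPM in CRISPRi neurons, against 1709 and 1853 CPM in control, and 14 of the 18 fold changes were positive. The median of 0.11 on the log2 scale was the highest of the 6 roles; without control replicate 1 it was 0.048, just below that of the late endosome and lysosome RABs (0.049). RAB6A, the main Golgi RAB (chromosome 11, 73675638 to 73761074, minus strand), had 413 and 413 CPM in CRISPRi neurons, against 322 and 403 CPM in control. RAB6B, its paralog enriched in brain (chromosome 3, 133824236 to 133895882, minus strand), had 582 and 577 CPM in CRISPRi neurons, against 502 and 582 CPM in control. In both genes control replicate 1 was the low library and the other 3 lay close together. Their log2 fold changes were 0.19 (SE 0.12) and 0.11 (SE 0.10) with all libraries, and 0.04 and -0.00 without control replicate 1.

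RAB1A and RAB1B move vesicles from the ER to the Golgi. RAB1A had 195 and 201 CPM in CRISPRi neurons, against 176 and 192 CPM in control. RAB1B had 146 and 147 CPM in CRISPRi neurons, against 169 and 148 CPM in control. The groups were apart in opposite directions for the 2 paralogs (log2 fold changes 0.11 and -0.08), neither past the threshold, and the values were 0.05 and -0.01 without control replicate 1. RAB18, a RAB of the ER and lipid droplets, had 118 and 118 CPM in CRISPRi neurons, against 94.2 and 113 CPM in control, a log2 fold change of 0.15 (SE 0.10), and 0.07 with control replicate 1 left out. RAB2A, a RAB of ER to Golgi traffic and of lysosome fusion, had 185 and 189 CPM in CRISPRi neurons, against 164 and 178 CPM in control, a log2 fold change of 0.13 (SE 0.08), and 0.07 with control replicate 1 left out.

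RAB2B, the paralog of RAB2A (chromosome 14, 21459020 to 21476959, minus strand), had 81.5 and 82.6 CPM in CRISPRi neurons, against 88.9 and 43.1 CPM in control. Control replicate 2 was the low library, and the shallow control lay at the level of CRISPRi. The log2 fold change of 0.63 (SE 0.30, 95% interval -0.15 to 1.40) was the highest in the family and did not pass (edgeR quasi-likelihood adjusted p = 1.00). Without control replicate 1 it was 0.94 and passed (SE 0.05, adjusted p = 0.000861); without control replicate 2 it was -0.09. The call thus rests on control replicate 2 alone.

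The other Golgi members ranged more widely where counts were low. RAB39B, a neuronal RAB linked to X-linked intellectual disability and early parkinsonism, had 67.3 and 69.2 CPM in CRISPRi neurons, against 76.2 and 64.5 CPM in control, a log2 fold change of 0.03, and 0.09 with control replicate 1 left out. RAB33A, a brain RAB of the Golgi and of axon growth, had 19.2 and 19.4 CPM in CRISPRi neurons, against 12.7 and 18.9 CPM in control, with 12 counts in control replicate 1; its log2 fold change was 0.13, or 0.04 without that library. RAB30 and RAB36 of the Golgi, RAB33B, which binds the autophagy protein ATG16L1, and RAB39A had log2 fold changes between 0.03 and 0.11, also without control replicate 1 (0.04 to 0.07). RAB34, which acts in lysosome position and cilium formation, had 6.96 and 6.74 CPM in CRISPRi neurons, against 11.6 and 7.17 CPM in control, a log2 fold change of -0.22, and -0.06 with control replicate 1 left out. RAB6C and RAB6D, close copies of RAB6A, had 4.11 to 5.29 and 7.87 to 10.6 CPM; how reads were divided among the copies is uncertain. RAB43 had 3.68 and 4.16 CPM in CRISPRi neurons, against 0 and 3.13 CPM in control, and RAB41 had 0.669 and 0.577 CPM in CRISPRi neurons, against 0 and 0.458 CPM in control. Their fitted log2 fold changes of 0.57 (SE 0.55) and 0.55 (SE 0.60), set against 0 counts in control replicate 1, were 0.33 and 0.45 without that library. ISY1-RAB43, a read-through symbol on the strand of RAB43, had 75 and 69 counts in CRISPRi neurons, against 0 and 120 in control. Summed with RAB43 it was at 5.35 and 5.82 CPM in CRISPRi neurons, against 0 and 6.18 CPM in control. Between the deep libraries the sum was thus not higher in CRISPRi neurons. The 0 in control replicate 1 allows at most 3.90 CPM by the exact Poisson interval used for the RAB4B sum. How reads were divided between these symbols was not tested. RAB19 had at most 4 counts in a library.

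The last group holds RABs of the cilium, those with a SOCS box and others; 5 of 6 listed members were tested and 0 called, with a median log2 fold change of -0.13. RAB40C, a RAB with a SOCS box that joins a ubiquitin ligase complex, had 65.2 and 65.2 CPM in CRISPRi neurons, against 78.3 and 69.9 CPM in control, a log2 fold change of -0.13 (SE 0.08). Both CRISPRi values lay below both controls, and the difference did not pass; it was -0.09 without control replicate 1. RAB28, a RAB of photoreceptors and the cilium, had 10.1 and 10.3 CPM in CRISPRi neurons, against 14.8 and 10.9 CPM in control, a log2 fold change of -0.18 (SE 0.19), and -0.09 with control replicate 1 left out. RAB40B, with a SOCS box too, had 17.1 and 16.2 CPM in CRISPRi neurons, against 15.9 and 17.9 CPM in control, a log2 fold change of -0.06, and -0.10 with control replicate 1 left out. RAB40A, a further paralog, had 46 and 60 counts in CRISPRi neurons, against 2 and 75 counts in control, a fitted log2 fold change of -0.64 (SE 0.48), and -0.62 with control replicate 1 left out. RAB23, a negative regulator of Hedgehog signalling, had 18.2 and 17.6 CPM in CRISPRi neurons, against 9.52 and 19.3 CPM in control, a log2 fold change of 0.05, and -0.10 with control replicate 1 left out, and RAB42 had 10 counts or fewer in each library.

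The members that any left-out library brought past the threshold each had a single library apart from the others. Without control replicate 2, when the shallow control stood alone, RAB13 (log2 fold change -0.94), RAB6A (0.39), RAB6B (0.24) and RAB4B passed edgeR's quasi-likelihood test (adjusted p = 0.0428 for RAB13, 0.00635 for RAB6A, 0.0232 for RAB6B and 0.00196 for RAB4B). The background was then 3.61% of all genes higher and 4.97% lower, against 3 of 57 members higher and 1 lower; the fitted value of RAB4B, set against 0 counts, is no measure of size. Without control replicate 1 the background was 0.437% higher and 0.222% lower, and RAB2B was the 1 member called. Without CRISPRi replicate 2 it was 0.025% higher and 0.181% lower, with RAB5C called lower, and without CRISPRi replicate 1, at 0.0125% higher and 0.0938% lower, no member was called.

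**Figure D3:**
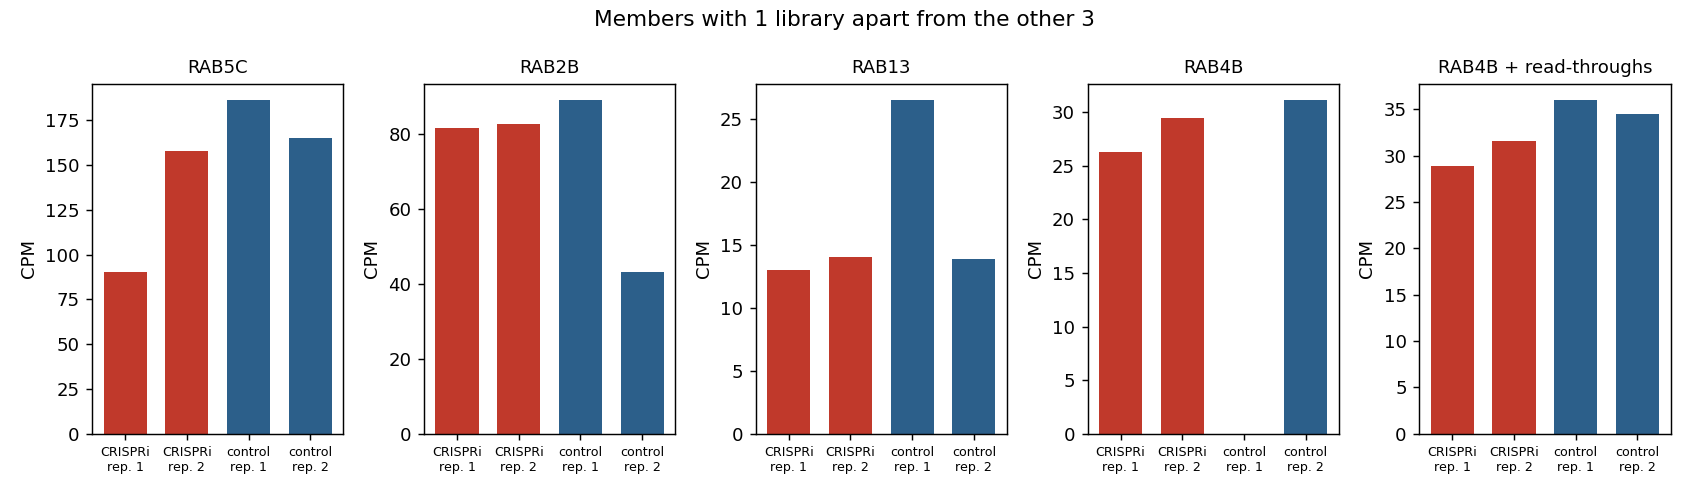
Level in CPM (vertical axes from 0, each panel with its own scale) of RAB5C, RAB2B, RAB13, RAB4B and the summed RAB4B locus in each library; red bars are CRISPRi and blue bars control libraries, with no error bars because each bar is a single library. CRISPRi replicate 1 is low for RAB5C, control replicate 2 for RAB2B, and control replicate 1 is high for RAB13 and at 0 for RAB4B, but not for the summed locus.

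The 3 deep libraries allow a closer look, without replicates. Over 7723 genes of at least 20 CPM, 34 of them RABs, CRISPRi replicate 1 over CRISPRi replicate 2 differed by 0.5 or more on the log2 scale for 80 genes (1.04%), among them RAB5C (-0.80). Set against control replicate 2, CRISPRi replicate 1 differed that much for 106 genes (1.37%), among them RAB2B (0.92) and RAB5C (-0.87), and CRISPRi replicate 2 for 97 genes (1.26%), among them RAB2B (0.94). For RAB5C the gap between the CRISPRi replicates was thus nearly as wide as that between CRISPRi replicate 1 and control replicate 2. The other RABs of that level stayed within 0.5 in all 3 ratios.

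Several subfamilies were divided among their paralogs in steady shares, taken per kilobase of exon. RAB3A held 79.0% and 79.4% of the RAB3 level in CRISPRi, against 78.6% and 79.8% in control; without length scaling its mean share was 39.6%. RAB11B held 74.5% and 73.9% of the RAB11 level in CRISPRi, against 74.2% and 75.5% in control, and RAB39B held 72.8% to 73.2% of the RAB39 level in every library. RAB33A held 84.5% to 87.0% of RAB33, RAB40C 83.6% to 86.2% of RAB40, while RAB7B held at most 0.0049% of RAB7. The mean share of RAB33A was 62.7% without length scaling.

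Others were less steady. RAB4A held 53.6% and 49.4% of the RAB4 level in CRISPRi, against 100% and 47.1% in control, the 100% being the library with 0 counts of RAB4B. RAB5C was at 37.4% and 49.4% of the RAB5 level in CRISPRi, against 53.5% and 50.7% in control. RAB2A held 63.3% and 63.5% of the RAB2 level in CRISPRi, against 58.4% and 75.9% in control. The library apart was control replicate 1 for RAB4, CRISPRi replicate 1 for RAB5 and control replicate 2 for RAB2. Without length scaling RAB5C had a mean share of 29.6%, behind RAB5B at 52.5%. RAB6A and RAB6B were near balance, with RAB6A at 52.1% and 52.4% in CRISPRi, against 49.2% and 51.6% in control. Shares were not tested between groups.

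**Figure D4:**
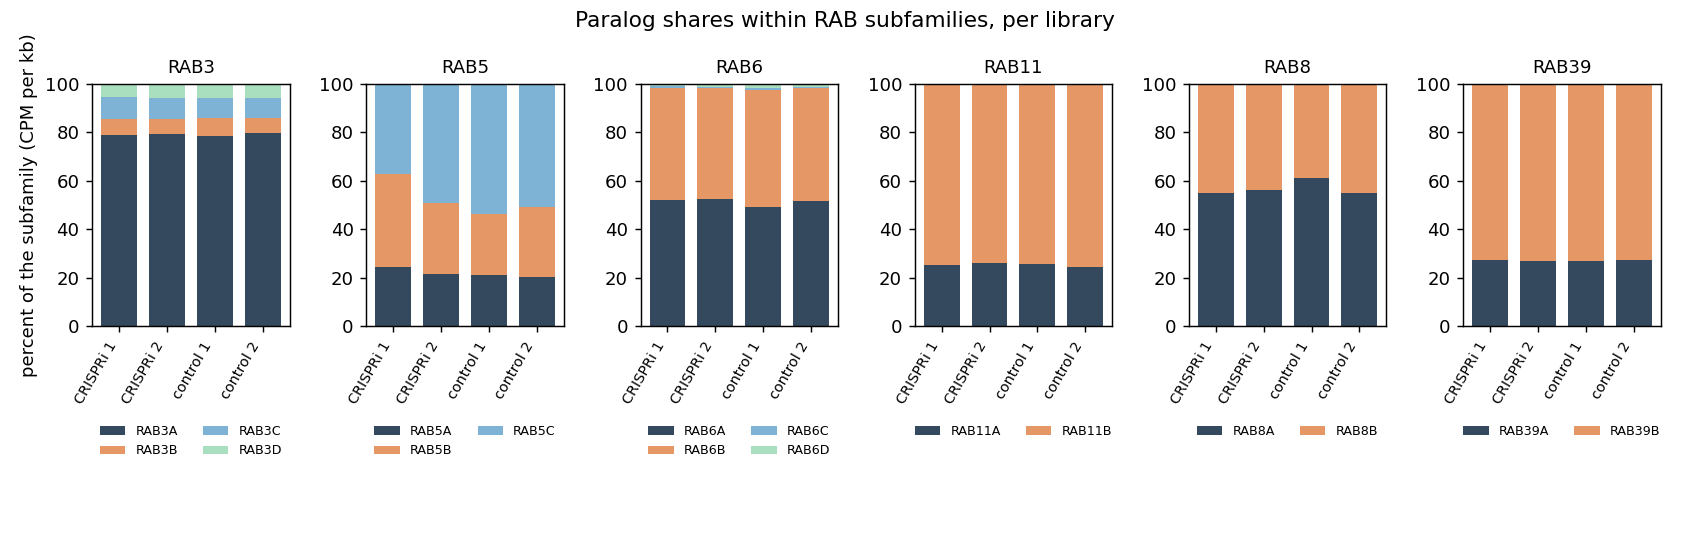
Share of each paralog in the level of its subfamily, in percent of CPM per kb, for RAB3, RAB5, RAB6, RAB11, RAB8 and RAB39, with 1 stacked bar per library and the CRISPRi libraries on the left of each panel. RAB3A holds 78.6% to 79.8% of RAB3 in all 4 libraries, and RAB5C holds less of RAB5 in CRISPRi replicate 1 (37.4%) than in the other 3.

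Genes that load, unload and act with RABs did not pass the test with all 4 libraries either. Of 166 listed pathway genes 157 were tested and 0 were called in either direction; 3 lay higher (0.547% of all genes) and 1 lower (0.414% of all genes) at an unadjusted p under 0.05. Without control replicate 2 there were 7 called higher and 3 lower, beside 3.61% and 4.97% of all genes: BICD1, MICAL3, MYO5A, RAB11FIP4, RABEP1, RPH3A and TRAPPC9 higher, and CHML, MICALL1 and TBC1D4 lower. With control replicate 1 left out instead, ANKFY1 and VPS41 were called higher and 0 genes lower, of 158 tested, beside 0.437% and 0.222%. The median log2 fold change was 0.01 for 7 genes of prenylation and membrane recycling, 0.03 for 40 exchange factors and 0.05 for 36 GTPase-activating proteins. It was 0.06 for 17 secretory vesicle effectors, 0.06 for 34 endosome and lysosome effectors and -0.00 for 23 ER and Golgi effectors. Over all 157 the median was 0.04, and it was -0.01 without control replicate 1. CHML had a log2 fold change of -1.74 with all libraries and -3.34 without control replicate 2, but 1.52 without control replicate 1. Without control replicate 1 the other genes called on leaving out control replicate 2 ran from -0.06 (MICALL1) to 0.22 (MYO5A).

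ANKFY1, an effector of RAB5 on early endosomes, had 164 and 163 CPM in CRISPRi neurons, against 140 and 91.4 CPM in control. Control replicate 2 was the low library, as for RAB2B. The log2 fold change was 0.63 (SE 0.18) and did not pass edgeR's quasi-likelihood test with all 4 libraries (adjusted p = 1.00), but passed without control replicate 1 (0.84), as did the HOPS subunit VPS41, and with a replicate block (0.59). CHM, an escort protein that presents new RABs for lipid attachment, had 20.9 and 40.4 CPM in CRISPRi neurons, against 48.7 and 40.1 CPM in control. CRISPRi replicate 1 was the low library, as for RAB5C, and the log2 fold change was -0.45 (SE 0.36).

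TBC1D30, a GTPase-activating protein, had 47.2 and 45.1 CPM in CRISPRi neurons, against 37.0 and 38.4 CPM in control, a log2 fold change of 0.29 (SE 0.09). HPS4, a subunit of the exchange factor for RAB32 and RAB38, had 47.4 and 47.8 CPM in CRISPRi neurons, against 58.2 and 54.8 CPM in control, a log2 fold change of -0.21 (SE 0.08). MYO5A, the myosin that moves RAB11 and RAB27 vesicles along actin, had 679 and 665 CPM in CRISPRi neurons, against 579 and 578 CPM in control, a log2 fold change of 0.23 (SE 0.07); it was named after its values were seen. In these 3 genes the groups did not overlap, and none passed after adjustment with all 4 libraries; without control replicate 1 the values were 0.27, -0.20 and 0.22. The genes of smallest p in the other lists and directions were RABGGTB (0.13), WDR41 (0.14), TBC1D17 (-0.11), DOC2B (0.09), BICD1 (0.13) and MICAL2 (-0.31), together with SYTL4 (-1.10) and RILPL2 (-1.43), which had 2 counts each in control replicate 1.

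The members on the chromosome of the targeted element lie far from it. The element is given as chromosome 11 from 47605296 to 47605575 and also as 47608036 to 47608220. The nearest members are RAB1B, at 18.7 Mb, and RAB6A, at 26.1 Mb, with RAB30, RAB38 and RAB39A at 35.4 to 60.3 Mb. Their log2 fold changes, where tested, were -0.08 for RAB1B, 0.19 for RAB6A, 0.11 for RAB30 and 0.03 for RAB39A, none past the threshold.

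A number of RAB loci share their span with other genes. Of the 63 members 21 overlap another symbol, and for 14 of them that symbol had more than 20 counts in a library. MPV17L2 overlaps RAB3A on the other strand with 1139 and 1105 counts in CRISPRi neurons, against 32 and 1084 in control, and SRPRB overlaps RAB6B with 3309 and 3045 counts in CRISPRi neurons, against 70 and 2761 in control. Whether the authors counted by strand is not stated in the sources used here, so reads of such pairs may not be told apart.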

How the data were processed

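The authors deposited, per library, a table of genes with a whole-number count and an FPKM value for each; the counts were tested and the FPKM values used only to check the order of levels. The submitters' processing notes name hg38 as the build and list edgeR and limma, with no version; which aligner and counter were used, and whether strand was used, is not given in the sources used here. Reads were paired, 75 bp, from polyA RNA, per the labels.

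Counts were summed per symbol, and the CRISPRi group was compared with the control group with edgeR 4.0.16 under R 4.3.3 (TMM scaling, filterByExpr, a quasi-likelihood F test with robust fits), with group as the only term and Benjamini-Hochberg adjustment at 0.05 over all 15708 genes tested. Standard errors and 95% intervals derive from the F statistic. Fold changes weight libraries by depth, whereas means ± SD weight them equally. CPM is scaled to the total count of each library. Exon lengths come from the merged exons of protein-coding transcripts in the basic set of GENCODE release 29. The p-values set the difference between groups against the spread between these libraries, which is estimated with information shared across genes. No pair of replicates was close enough to be counted as 1 library.

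The members and lists were chosen with earlier results of these data known. Genes named in full are the 3 highest per role in CPM per kb, the RAB3 and RAB27 paralogs, the 5 of smallest p in each direction, and for each pathway list the gene of smallest p in each direction; others are named where a statement turns on them. The 12 alternatives were scaling by RLE or by total count, a low-count filter left off or set at 1 CPM in 2 libraries, limma-voom (limma 3.58.1), DESeq2 1.42.0, primary chromosomes only, a replicate block, and each library left out.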

Additional observations from a re-analysis of the deposited data

How the results depend on the processing

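The 0 calls among RAB genes held under every setting that kept all 4 libraries; leaving out a library gave 0 to 3 members called higher and 0 to 1 lower. Over all genes 0 were called higher, but 1 by DESeq2, 17 under the replicate block and 2 to 580 on leaving out a library. The 4 genes called lower were 11 by DESeq2, 2 by limma-voom, 25 under the replicate block and 15 to 798 on leaving out a library. The family median of 0.045 was 0.030 by total-count scaling, 0.039 by the 1 CPM filter, 0.039 by limma-voom, 0.059 under the replicate block and 0.020 to 0.11 on leaving out a library. The labels do not pair the samples by number. Deviations of same-numbered libraries from their group means had r = -0.0272 across 15708 genes. Control replicate 1 is so shallow that this value cannot decide whether libraries were paired. The replicate block called 0 RAB genes. Without length scaling the mean share was 55.6% for RAB1A, 39.6% for RAB3A, 29.6% for RAB5C, 40.2% for RAB6A, 42.9% for RAB8A, 55.6% for RAB11B, 83.8% for RAB39B and 79.1% for RAB40C; that alternative leaves out exon length by construction.

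Of 464 values of 39 named genes, 429 stayed on their side of the threshold with the same sign, 7 newly passed it and 28 turned sign. On leaving out a library, log2 fold changes ran from -0.046 to 0.17 for RAB3A, -0.0090 to 0.12 for RAB5B, -0.073 to 0.11 for RAB11B, -0.43 to 0.049 for RAB12, -0.46 to 0.061 for RAB24, -0.00018 to 0.24 for RAB6B, -0.096 to 0.098 for RAB40B, -0.22 to 7.90 for RAB27A (against 0 counts, no measure of size), -0.046 to 0.024 for RAB3B, -0.078 to 0.053 for RAB3D, -0.086 to 0.94 for RAB2B and -0.15 to 0.012 for TBC1D17. By limma-voom the values were -0.015 for RAB3A, -0.050 for RAB11B, 0.020 for RAB12, 0.012 for RAB24 and 0.27 for RAB27A. RAB11B was -3.3e-05 by RLE factors, -0.014 by total-count scaling, -0.0048 by the 1 CPM filter, -0.0068 by DESeq2 and -0.0014 on primary chromosomes, and RAB27A was 0.34 by DESeq2 and 0.31 under the replicate block. The cause was not tested. A group reduced to 1 library is taken to vary as the other group does. The depth of control replicate 1 limits members under 3.17 CPM. In that library 12 members had 0 counts, and 5 of these were tested. Not all of the 12 lay under that level elsewhere. RAB4B had 26.3 to 31.1 CPM in the deep libraries, and RAB43 had 3.68 and 4.16 CPM in CRISPRi neurons.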
